A study of Mus musculus with 5 samples.

Results

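The renin-angiotensin system makes a peptide hormone by stepwise cutting of a secreted precursor, and 9 of its genes were followed here in RNA labelled as visceral adipose tissue of male C57BL/6 mice. The 9 genes (Agt, Ren1, Ace, Enpep, Agtr1a, Agtr1b, Agtr2, Mas1 and Atp6ap2) were picked by symbol from 78334 Ensembl genes in the count table, and all 9 were found. They were picked with the values in view, because Agt was lower in both curcumin-treated libraries than in the other 3. The differences of the 9 genes between curcumin-treated and other libraries are therefore described without a test.

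The 5 libraries were 2 from diabetic mice given curcumin, a polyphenol of turmeric, 2 from untreated diabetic mice, and 1 from a control mouse. Both diabetic groups had been injected once with streptozotocin (70 mg/kg), which kills pancreatic beta cells, when 2 days old, and had eaten high-fat food (60% of calories) for 8 weeks, starting 3 weeks after birth. Curcumin treatment was a daily gavage of 50 mg/kg that began at 11 weeks and lasted 28 days. Untreated diabetic and control mice received the vehicle, and the control had standard chow. Whether each library is a different mouse is not stated, so the tests measure spread between libraries, which may not be spread between mice. That spread takes in large differences in tissue markers within groups, given below. The control has no replicate.

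In the textbook pathway, the liver is the main source of angiotensinogen (Agt), and fat cells also secrete it. Renin (Ren1) cuts it to angiotensin I, and angiotensin-converting enzyme (Ace) turns that into angiotensin II, which raises blood pressure mainly through the AT1 receptors. In fat, locally made angiotensin II has been linked to adipocyte growth and lipid storage.

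Total counts ran from 25378046 to 42422890, which puts the limit left by a count of 0, taken as 3 counts, at 0.0707 to 0.118 CPM (counts scaled to the library total, the scale of all levels here unless stated). These limits cover counting error only. The tissue label held poorly in several libraries. Summed adipocyte markers (10 genes, none at 0 in any library) took 3306 and 175 CPM in curcumin-treated 1 and 2, 140 and 25458 CPM in diabetes 1 and 2, and 404 CPM in control 1. Summed markers of the epididymis (10 genes), the sperm duct beside gonadal fat, took 5993 and 55782 CPM with curcumin, 40013 and 0.0394 CPM in diabetes, and 42753 CPM in control 1. In curcumin-treated 1 that sum was mostly Crisp1, at 5965 CPM, and in diabetes 2 it was 1 count, with 9 of the 10 genes at 0. Smooth muscle markers (8 genes) summed to 44257 CPM in curcumin-treated 1 and to 1082 to 2484 CPM in the other 4. In such bulk RNA, fewer cells of a type and less RNA per cell cannot be told apart.

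RefSeq's table of start regions (GRCm38.p6) held 8 of the 9 genes. The 250 bases before the start site are shown for Agt, the gene that is lower with curcumin. They are also shown for the start sites of Ace, because it has both a somatic start and an internal start 7241 bases downstream, which in textbooks drives the shorter form of male germ cells. The counts are per gene and do not separate these forms. Capitals mark matches, on either strand, to TATAAA, to the GC box GGGCGG and to TGANGTCA, a motif close to the cAMP response element; in the somatic Ace window the first pair of GC boxes overlap. The Agt window lies at chr8:124569707-124569956 (minus strand), the somatic Ace window at chr11:105967698-105967947 (plus strand) and the internal Ace window at chr11:105974939-105975188 (plus strand).
Agt: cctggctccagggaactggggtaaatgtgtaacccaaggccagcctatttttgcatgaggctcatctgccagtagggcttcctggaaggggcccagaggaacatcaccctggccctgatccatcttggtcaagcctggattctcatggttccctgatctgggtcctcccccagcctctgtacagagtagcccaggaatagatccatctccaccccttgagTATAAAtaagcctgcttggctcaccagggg
Ace, somatic start: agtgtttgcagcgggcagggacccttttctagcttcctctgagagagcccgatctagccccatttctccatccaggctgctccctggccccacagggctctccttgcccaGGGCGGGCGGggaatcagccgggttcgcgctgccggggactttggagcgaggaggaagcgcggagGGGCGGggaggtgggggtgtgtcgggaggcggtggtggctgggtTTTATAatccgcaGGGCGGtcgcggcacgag
Ace, internal start: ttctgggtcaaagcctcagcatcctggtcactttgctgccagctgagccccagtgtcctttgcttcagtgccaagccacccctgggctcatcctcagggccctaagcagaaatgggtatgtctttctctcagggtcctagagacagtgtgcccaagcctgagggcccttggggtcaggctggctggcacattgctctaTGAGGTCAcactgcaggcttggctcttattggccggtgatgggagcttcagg
The Agt window held a TATAAA match on its own strand, 30 bases before the start. The somatic Ace window held 4 GC boxes and a TATAAA match on the opposite strand, and the internal window held only the TGANGTCA match, 52 bases before its start. Over all 32851 start regions of this length in the table, 12.4% held TATAAA, 32.7% held GGGCGG and 7.49% held TGANGTCA. These are matches of letters, not shown binding sites.

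Agt (ENSMUSG00000031980) was low in both curcumin-treated libraries and high in both diabetic ones. It had 219 and 437 counts (7.87 and 10.3 CPM) with curcumin, 2109 and 2051 counts (82.9 and 80.8 CPM) in diabetes, and 1376 counts (50.9 CPM) in control 1. The groups did not overlap, and the control lay between them. Of all genes tested, 9.72% were lower in both curcumin-treated libraries than in both diabetic ones, and 5.76% lower than in the other 3. The choice of genes used this separation of Agt. The 95% exact Poisson intervals, which cover counting error only, reached 11.3 CPM at most with curcumin and 77.4 CPM at least in diabetes. The means were 9.09 ± 1.72 CPM with curcumin and 81.8 ± 1.45 CPM in diabetes (SD, n = 2 each). The fitted log2 fold change was −3.16 (SE 0.50) against diabetes and −2.33 (SE 0.54) against the control. These SEs come from the same values that the choice of genes used, so they are no test of the differences.

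**Figure D1:**
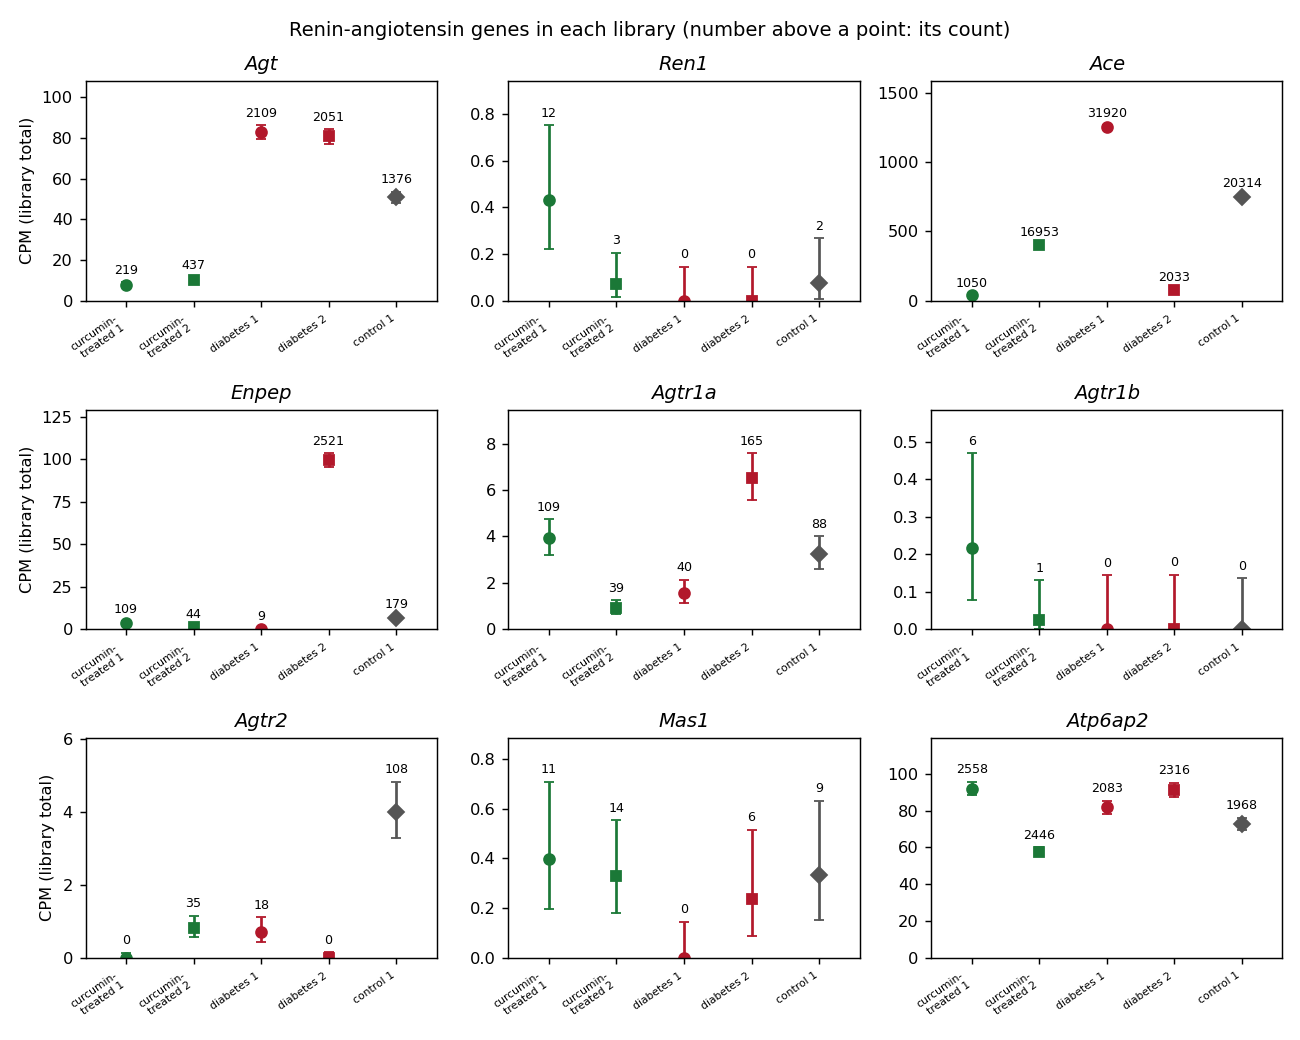
Level of each of the 9 genes in the 5 libraries, as CPM of the library total (linear axis from 0). Bars are 95% exact Poisson intervals of the count, which is written above each point. Agt stands at 7.87 and 10.3 CPM in the curcumin-treated libraries and at 50.9 CPM or more in the other 3, while Ace, Enpep and the receptors differ within groups.

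Marker sums are given here beside Agt, and the part of adipocyte, epididymis, liver or smooth muscle RNA in its level was not tested. Diabetes 1 and 2 differed 181-fold in summed adipocyte markers, and their Agt levels had a ratio of 0.975 (diabetes 2 over diabetes 1). Curcumin-treated 1 had 18.9 times the adipocyte sum of curcumin-treated 2 and 0.764 times its Agt. Among the 3 libraries rich in epididymis markers, Agt was at 10.3 CPM in curcumin-treated 2, 82.9 CPM in diabetes 1 and 50.9 CPM in control 1. Their epididymis sums lay within 40013 to 55782 CPM and their adipocyte sums within 140 to 404 CPM. Single epididymis markers were less alike, so these libraries are not matched in tissue. In the same order, Crisp1 was at 334, 1700 and 2610 CPM and Lcn8 at 19664, 4297 and 10028 CPM. Defb21 was more even, at 235, 218 and 196 CPM. Endothelial sums were 62.4, 31.7 and 144 CPM. The liver markers (7 genes) summed to 3.85 and 1.51 CPM with curcumin, 1.41 and 29.0 CPM in diabetes and 0.925 CPM in control 1. Albumin (Alb), the defining marker of liver, was at 46 and 0 counts with curcumin, 6 and 307 counts in diabetes and 0 in control 1. Smooth muscle markers were far higher in curcumin-treated 1 than in curcumin-treated 2, with a ratio of 20.4.

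**Figure D2:**
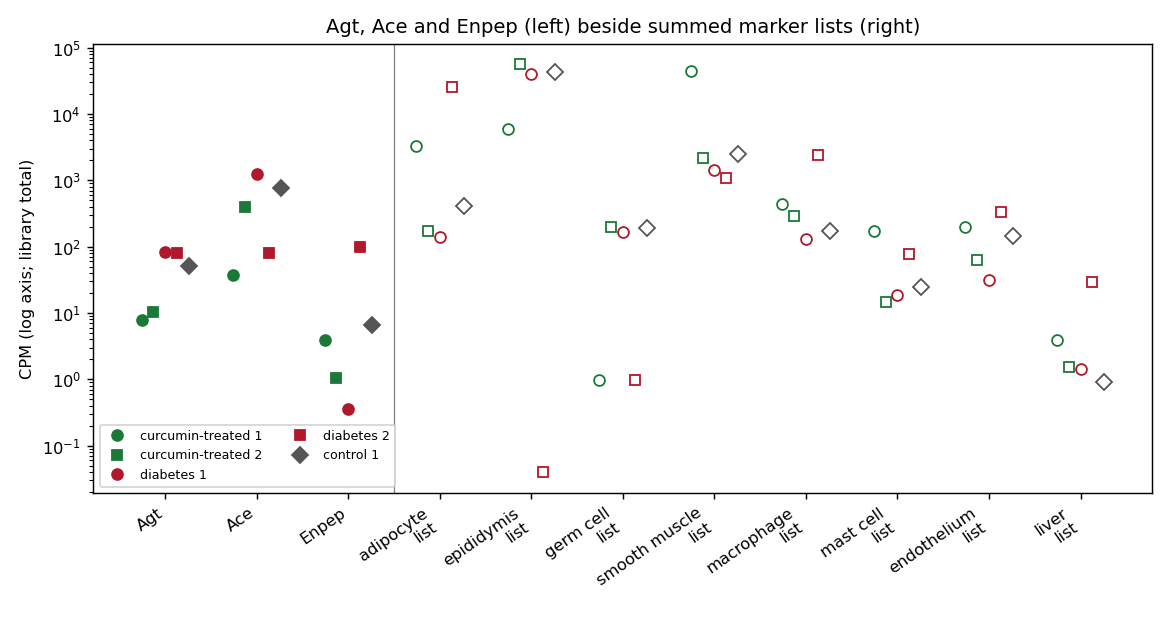
CPM of Agt, Ace and Enpep (filled) beside the summed CPM of marker lists (open) in each library, on a log axis. Diabetes 1 and diabetes 2 nearly coincide for Agt (82.9 and 80.8 CPM) and lie far apart for the adipocyte sum (140 and 25458 CPM). Ace is high in the 3 libraries with high germ cell sums (165 to 199 CPM) and high epididymis sums (40013 to 55782 CPM). Among these 3, curcumin-treated 2 has the highest of both sums and the lowest Ace.

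The 5 genes whose profile lay nearest to that of Agt were Golm1, Ptpro, Piezo1, Acss3 and Efr3b. They were taken from 14194 genes by the root mean square difference of mean-centred log2 CPM over the 5 libraries, which was 0.34 for Golm1, 0.48 for Ptpro, 0.51 for Piezo1, 0.53 for Acss3 and 0.60 for Efr3b. Likeness to Agt picked them, so their low levels with curcumin follow from that choice and are no separate result. Over all genes tested, 5.76% were lower in both curcumin-treated libraries than in the other 3. Ptpro, a receptor tyrosine phosphatase, had 4.82 and 6.79 CPM with curcumin, 25.5 and 24.4 CPM in diabetes and 26.1 CPM in control 1. Efr3b had 4.57 and 9.92 CPM with curcumin, 24.4 and 27.5 CPM in diabetes and 24.0 CPM in control 1. In both, the control was near diabetes. Golm1, a Golgi membrane protein, had 2.66 and 3.28 CPM with curcumin, 14.5 and 20.96 CPM in diabetes and 14.7 CPM in control 1. Piezo1, a mechanically gated channel, had 17.7 and 9.12 CPM with curcumin, 77.6 and 139 CPM in diabetes and 68.9 CPM in control 1. Acss3 had 3.06 and 4.41 CPM with curcumin, 20.7 and 46.9 CPM in diabetes and 10.8 CPM in control 1, so there the control lay between the groups. Of the other members, Atp6ap2 lay nearest to Agt, at 1.41, and ranked 3487 of the 14194 genes.

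Ren1 (ENSMUSG00000070645), the only renin gene that C57BL/6 mice carry, was at or near the limit of detection. It had 12 and 3 counts with curcumin, 0 and 0 in diabetes and 2 in control 1. Only curcumin-treated 1, at 0.431 CPM, lay clearly above the limit that a count of 0 allows. No fold change is given, since both diabetic libraries were at 0.

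Ace (ENSMUSG00000020681) differed more within groups than between them. It had 1050 and 16953 counts (37.7 and 400 CPM) with curcumin, 31920 and 2033 counts (1254 and 80.1 CPM) in diabetes, and 20314 counts (752 CPM) in control 1. The 3 libraries rich in epididymis markers, 1 of each group, were high and the other 2 low. Among the 3 high libraries, curcumin-treated 2 was at 0.319 times diabetes 1 and 0.532 times control 1. The group means were 219 ± 256 CPM with curcumin and 667 ± 830 CPM in diabetes (SD, n = 2 each). The fitted log2 fold change was −1.44 (SE 1.57) for curcumin-treated against untreated diabetes, and it was 1.43 without diabetes 1. For diabetes against control it was −0.12 (SE 1.88; adjusted p = 1, edgeR's quasi-likelihood test), and 0.78 without diabetes 2.

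Endothelial cells, epididymal duct cells and male germ cells are all known sources of Ace. Summed endothelial markers (6 genes) were at 197 and 62.4 CPM with curcumin, 31.7 and 337 CPM in diabetes and 144 CPM in control 1, and their part in the Ace level was not tested. Summed germ cell markers (7 genes) were at 0.971 and 199 CPM with curcumin, 165 and 0.985 CPM in diabetes and 188 CPM in control 1. Prm1 alone of this list was at 0 in all 3 Ace-rich libraries. Germ cell and epididymis markers were high in the same 3 libraries, so their parts in the Ace level cannot be told apart. An antisense gene over Ace, Gm11651, had at most 94 counts.

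Enpep (ENSMUSG00000028024), or aminopeptidase A, trims angiotensin II to angiotensin III and is also a surface marker of early B cells. It had 109 and 44 counts (3.92 and 1.04 CPM) with curcumin, 9 and 2521 counts (0.354 and 99.3 CPM) in diabetes, and 179 counts (6.62 CPM) in control 1. Diabetes 2 alone was high, at 281 times diabetes 1, which was the lowest of the 5. The log2 fold change was −4.50 (SE 2.25) for curcumin-treated against untreated diabetes, and 2.82 without diabetes 2. For diabetes against control it was 3.16 (SE 2.82; adjusted p = 1, edgeR), and −4.17 without diabetes 2. Diabetes 2 also had the highest summed adipocyte (25458 CPM), macrophage (2406 CPM) and endothelial (337 CPM) markers, and their part in the Enpep level was not tested.

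Of the AT1 receptor genes, through which angiotensin II constricts vessels, Agtr1a (ENSMUSG00000049115) was the one detected throughout. It had 109 and 39 counts (3.92 and 0.919 CPM) with curcumin, 40 and 165 counts (1.57 and 6.50 CPM) in diabetes, and 88 counts (3.26 CPM) in control 1. The groups overlapped, and the libraries poorest in epididymis markers, curcumin-treated 1 and diabetes 2, were the highest of their groups. The log2 fold change for curcumin-treated against untreated diabetes was −0.87 (SE 1.21), and 0.64 without diabetes 2. For diabetes against control it was 0.52 (SE 1.50; adjusted p = 1, edgeR), and −1.01 without diabetes 2. Agtr1b (ENSMUSG00000054988) had 6 and 1 counts with curcumin and 0 in the other 3, and was too low to be tested. The AT1 genes are close paralogs and may share reads.

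Agtr2 (ENSMUSG00000068122) encodes the AT2 receptor, which in many tissues opposes AT1. It had 0 and 35 counts with curcumin, 18 and 0 in diabetes and 108 in control 1. It was thus seen only in the 3 libraries rich in epididymis markers, where curcumin-treated 2 had 0.825 CPM, diabetes 1 had 0.707 CPM and control 1 had 4.00 CPM. The 2 libraries at 0 allow up to 0.108 CPM (curcumin-treated 1) and 0.118 CPM (diabetes 2). For diabetes against control the log2 fold change was −3.42 (SE 2.77; adjusted p = 1, edgeR), and it was −2.45 without diabetes 2 and −9.81 without diabetes 1, which leaves the diabetic group at 0.

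Mas1 (ENSMUSG00000068037), the receptor of angiotensin 1-7, had 11 and 14 counts with curcumin, 0 and 6 in diabetes and 9 in control 1. These are 0.395 and 0.330 CPM, 0 and 0.236 CPM, and 0.333 CPM, and except for the 0 in diabetes 1 their Poisson intervals overlapped throughout. The antisense transcript Airn overlaps Mas1 and had 120 to 354 counts, so its reads could have been counted for either gene if strand was not used. The log2 fold change for diabetes against control was −1.26 (SE 2.30; adjusted p = 1, edgeR), and it was −0.25 without diabetes 1 and −6.28 without diabetes 2, which leaves the diabetic group at 0.

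Atp6ap2 (ENSMUSG00000031007), the (pro)renin receptor and an accessory part of the proton pump V-ATPase, had the narrowest range of the members detected in every library. It had 92.0 and 57.7 CPM with curcumin, 81.8 and 91.3 CPM in diabetes and 72.8 CPM in control 1. Its highest level was 1.60 times its lowest, against 10.5 times for Agt, 33.2 for Ace and 281 for Enpep. The log2 fold change was −0.25 (SE 0.46) for curcumin-treated against untreated diabetes and 0.40 (SE 0.57; adjusted p = 1, edgeR) for diabetes against control.

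Per kilobase of exon (GENCODE M21), the order of the levels changed between libraries. Ace led in curcumin-treated 2 (75.6 CPM per kb), diabetes 1 (237) and control 1 (142). Atp6ap2 led in curcumin-treated 1 at 35.1 CPM per kb, where Ace was at 7.14 and Agt at 4.16, and Agt led in diabetes 2 at 42.7 CPM per kb, ahead of Atp6ap2 at 34.9 and Enpep at 21.1. Agt in the other libraries was at 5.45 (curcumin-treated 2), 43.8 (diabetes 1) and 26.9 CPM per kb (control 1). Agtr1a was highest in diabetes 2 at 2.33 CPM per kb. In control 1 Agtr2, at 1.20 CPM per kb, was level with Agtr1a at 1.17, and Ren1, Agtr1b and Mas1 stayed under 0.3 CPM per kb in every library.

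**Figure D3:**
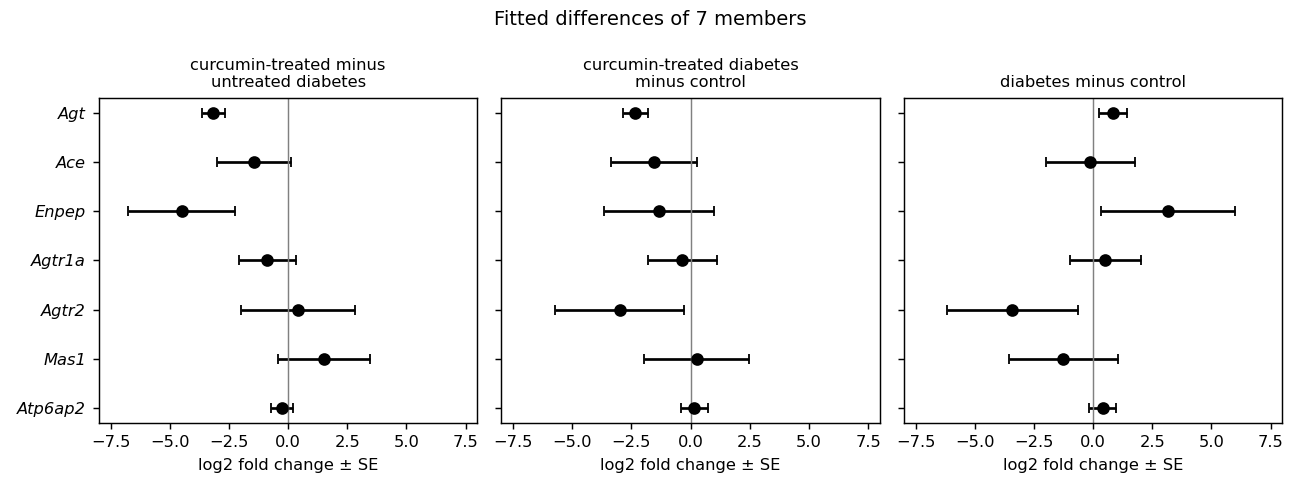
Fitted log2 fold changes with standard errors of 7 members in the 3 comparisons (Ren1 and Agtr1b are left out because whole groups were at 0 counts). Agt stands at −3.16 (SE 0.50) for curcumin-treated against untreated diabetes, values that the choice of genes used, and the errors of Enpep, Agtr2 and Mas1 exceed 1.9 on the log2 scale.

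A low-count filter left 29855 genes and 8 of the 9 members, all but Agtr1b. For diabetes against control, edgeR called 0 of the 8, beside 0% of all genes tested. Over all genes 440 had an unadjusted p under 0.05 in edgeR. DESeq2, given all 78334 genes, called 55 and none of the 9, but gave Ren1 and Agtr1b no adjusted p. Agt was at 81.8 ± 1.45 CPM in diabetes (SD, n = 2) and 50.9 CPM in the control, with a log2 fold change of 0.83 (SE 0.58; adjusted p = 1, edgeR), and 0.74 and 0.91 without diabetes 2 and 1. Both diabetic libraries lay above the control for Agt and Atp6ap2, 2 of 8 members, where 17.3% of all genes did so. Both lay below it for Ren1, Agtr2 and Mas1, 3 of 8, where 34.5% of all genes did so.

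For the curcumin-treated libraries, counts of this kind describe the choice of genes and show nothing further. Agt was the 1 member of 8 lower in both than in the other 3 libraries, as were 5.76% of all genes, and none of the 8 was higher in both, as were 7.83%. Agt was also the 1 member lower in both than in both diabetic libraries (9.72% of all genes), and Ren1 and Mas1 were higher in both (17.9%), each at 14 counts or fewer. Against the control, Agt, Ace, Agtr2 and Enpep were lower in both curcumin-treated libraries (34.0% of all genes) and none of the 8 was higher (24.6%). Agtr1b, which the filter removed, was higher in both than in the other 3 libraries, but only at 6 and 1 counts against 0. edgeR called 0% of all genes for curcumin-treated against untreated diabetes, with 696 at an unadjusted p under 0.05 and 105 called by DESeq2, and 0% for curcumin-treated diabetes against control, with 112 and 77.

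Patterns that cut across the groups took in other members. Ace and Agtr2, 2 of 8, were higher in curcumin-treated 2, diabetes 1 and control 1 than in the other 2 libraries, as were 18.4% of all genes. Agtr1a and Enpep, 2 of 8, were highest in diabetes 2, as were 22.0% of all genes.

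The wider pathway was followed through 90 further genes in 7 lists, of which 82 were tested. None was called by edgeR in any comparison. Of the 82, 37 had a positive and 45 a negative log2 fold change for curcumin-treated against untreated diabetes (median −0.09, all genes 0.05). For diabetes against control 50 were positive and 32 negative (median 0.44, all genes 0.07), and for curcumin-treated diabetes against control 55 were positive and 27 negative (median 0.35, all genes 0.17). Over all genes tested, positive and negative counts were 15448 and 14371, 15642 and 13489, and 17114 and 12501, in the same order. The summed CPM of each of the 7 lists was lower in diabetes 1 than in control 1, with ratios from 0.702 (renin cell genes) to 0.987 (receptors). Genes at an unadjusted p under 0.05 in edgeR were 2 (Spp1 and Ptgs2), 1 (Spp1) and 0 of the 82 in the 3 comparisons. Of all 29855 genes tested, 696, 440 and 112 were. Spp1 had 1.40 and 2.07 CPM with curcumin, 4.99 and 32.2 CPM in diabetes and 1.04 CPM in control 1. DESeq2 called Akr1b7 (adjusted p = 0.00197) and Ptgs2 (adjusted p = 0.00968) in the first comparison and Mcpt4 in the others (adjusted p = 6.3e-06 for diabetes against control and adjusted p = 4.3e-06 for curcumin-treated diabetes against control). Each call rested on 1 high library in a group. Akr1b7 and Ptgs2 were high in curcumin-treated 1 alone. Mcpt4 had 0 and 441 counts in diabetes, 1298 and 2 with curcumin and 0 in the lone control. Its unadjusted p in edgeR was 0.19 and 0.16.

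Among the 17 further peptidases, the most abundant were the lysosomal cathepsins Ctsd and Ctsa and the aminopeptidase Rnpep. Ctsd, which can cut angiotensinogen in the test tube, had 754 and 597 CPM with curcumin, 310 and 2148 CPM in diabetes and 424 CPM in control 1. Ctsa had 176 and 152 CPM with curcumin, 110 and 394 CPM in diabetes and 119 CPM in control 1, so both were highest in diabetes 2 and lowest in diabetes 1. Rnpep, aminopeptidase B, was more even, at 61.3 and 127 CPM with curcumin, 118 and 88.2 CPM in diabetes and 115 CPM in control 1. Of the 15 tested peptidases, 10 had a negative log2 fold change for curcumin-treated against untreated diabetes (median −0.39, all genes 0.05). For diabetes against control 12 were positive (median 1.28, all genes 0.07), with 0 called in either. Of all 29855 genes tested, 14371 were negative in the first comparison and 15642 positive in the second. The 17 peptidases summed to 1411 and 1072 CPM with curcumin, 768 and 3414 CPM in diabetes and 935 CPM in control 1. Diabetes 1 thus lay below the control, and diabetes 2 alone was high.

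Other peptidases were singled out after their values were seen. Neprilysin (Mme), which makes angiotensin 1-7 from angiotensin I, had 24.9 and 32.9 CPM with curcumin, 46.2 and 117 CPM in diabetes and 70.7 CPM in control 1. Both curcumin-treated libraries were thus lowest for Mme, as they were for 5.76% of all genes. Its log2 fold change was −1.53 (SE 0.66, adjusted p = 0.852, edgeR) against untreated diabetes. Neurolysin (Nln), which also makes angiotensin 1-7, was at 131 CPM in diabetes 2 and between 17.7 and 27.6 CPM in the other 4 libraries. Aminopeptidase N (Anpep), which trims angiotensin III, had 20.5 and 7.64 CPM with curcumin, 8.33 and 122 CPM in diabetes and 10.3 CPM in control 1, so that it and Nln were highest in diabetes 2, as Enpep was.

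The mast cell proteases were present in the other pair of libraries. Mcpt4, the main mouse counterpart of human chymase, which can make angiotensin II without Ace, had 1298 and 2 counts with curcumin, 0 and 441 in diabetes and 0 in control 1. Cma1, another chymase, had 1097 and 3 counts with curcumin, 0 and 430 in diabetes and 2 in control 1. Both were therefore detected well only in curcumin-treated 1 (46.7 and 39.4 CPM) and diabetes 2 (17.4 and 16.9 CPM), the libraries in which Ace was lowest. The mast cell carboxypeptidase Cpa3 did likewise, with 414 and 6 counts with curcumin, 0 and 242 in diabetes and 0 in control 1. Summed mast cell markers (6 genes, these 3 among them) were at 175 and 14.8 CPM with curcumin, 18.8 and 76.4 CPM in diabetes and 24.3 CPM in control 1. Kit, which is not confined to mast cells, made up the whole sum in diabetes 1 (18.8 CPM), where the other 5 genes were at 0.

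**Figure D4:**
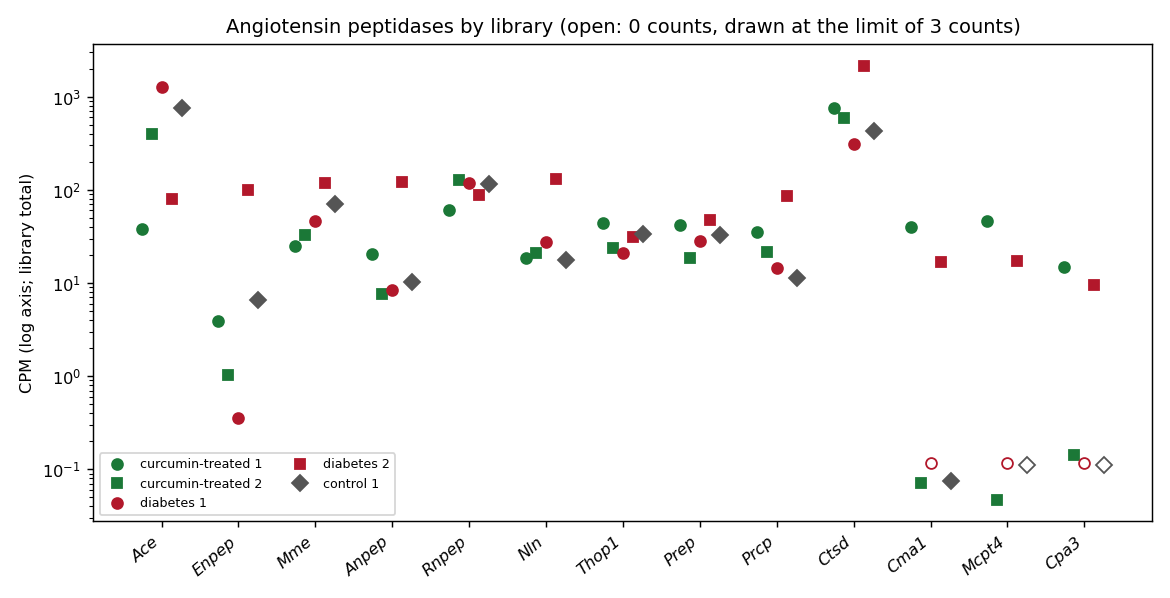
CPM of Ace, Enpep and 11 further angiotensin-cutting enzymes and mast cell proteases in each library, on a log axis; open symbols are libraries with 0 counts, drawn at the limit of 3 counts. Ace is highest in curcumin-treated 2, diabetes 1 and control 1, while Cma1, Mcpt4 and Cpa3 stand above 9 CPM in curcumin-treated 1 and diabetes 2 only.

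The further receptors and binding proteins ranged from even to widely spread. Igf2r, which can bind prorenin, had 180 and 27.4 CPM with curcumin, 37.8 and 149 CPM in diabetes and 28.3 CPM in control 1. Lnpep, the binding site of angiotensin IV, had 72.1 and 36.5 CPM with curcumin, 53.2 and 177 CPM in diabetes and 47.1 CPM in control 1. Arap1 ran from 59.6 to 80.5 CPM over the 5 libraries, and Lrp2, an endocytic receptor, from 0.394 CPM in diabetes 2 to 40.6 CPM in control 1. Of the 7 tested of 8 genes, 0 were called, and the median log2 fold change was 0.18 for curcumin-treated against untreated diabetes and −0.12 for diabetes against control.

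Of 16 signalling genes downstream of the AT1 receptor, the most abundant were Rhoa (154 to 303 CPM), the G protein subunit Gna11 (86.9 to 225 CPM) and the receptor kinase Grk2 (70.1 to 136 CPM). Their 16 log2 fold changes were 8 positive and 8 negative for curcumin-treated against untreated diabetes (median 0.00, all genes 0.05). For diabetes against control 12 were positive (median 0.44, all genes 0.07), with 0 called in either. The 16 genes summed to 1733 and 752 CPM with curcumin, 860 and 1285 CPM in diabetes and 1001 CPM in control 1. Diabetes 1 lay below the control. Of 13 genes known to respond to angiotensin II, 12 were tested. For curcumin-treated against untreated diabetes 10 were negative (median −0.88, all genes 0.05). For diabetes against control 9 were positive (median 2.00, all genes 0.07), with 0 called in either. The 13 genes summed to 430 and 197 CPM with curcumin, 203 and 744 CPM in diabetes and 247 CPM in control 1. Diabetes 1 thus lay below the control here too. The most abundant were Tgfb1, at 46.8 and 58.1 CPM with curcumin, 75.7 and 61.1 CPM in diabetes and 98.1 CPM in control 1, Cyba and Egr1. Tgfb1, a fibrosis factor, was thus lowest in the curcumin-treated libraries, as were 5.76% of all genes. Cyba, an oxidase subunit, was highest in diabetes 2 at 148 CPM, and Egr1, an early response gene, in curcumin-treated 1 at 131 CPM.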

How the data were processed

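Strand-marked poly-A libraries were sequenced from both ends, per the labels' protocols. The deposited table holds raw counts, which the authors made per Ensembl gene. FastQC, featureCounts and GRCm39 are named in the submitters' processing notes; aligner, annotation release and strand setting are not given there or in the other sources used here. Reads of antisense overlaps therefore cannot be assigned surely.

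Symbols were found for 51486 gene IDs (65.7%), which carried 95.3% to 98.5% of the counts. Overlaps and exon lengths were read from GENCODE M21 (GRCm38), and coordinates are those of the start-region table only. All 5 libraries entered 1 edgeR 4.0.16 quasi-likelihood fit in R 4.3.3 (filterByExpr, TMM, robust), with two-sided tests and Benjamini-Hochberg adjustment at 0.05. Residual degrees of freedom were 2 and the biological coefficient of variation was 1.09; the lone control took the spread estimated from the other groups. Each SE was derived from the fold change and its F statistic. The prior count was 0.125, and fold changes of genes with a group at 0 depend on it. The code was tested on simulated data, with fitted fold changes checked only at a much smaller spread than that of these data.

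The members and lists were chosen with earlier results of these data known. The text names all 9 members, the 3 most abundant genes of each pathway list, list genes past the threshold and the 5 genes nearest to Agt (mean log2 CPM of at least 1, prior count 2); other names were chosen after their values were seen, and a gene that this rule would name is not reported here. Alternatives were DESeq2 1.42.0, its size factors, library totals, no filter, a replicate block, a crossed block (chosen after seeing the data), a fit of the 4 diabetic libraries, TMM-scaled CPM, and leaving out each replicated library.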

Additional observations from a re-analysis of the deposited data

How the results depend on the processing

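edgeR called 0 genes in each comparison under each scaling, without the filter, with either block and without any single replicated library (0 to 0), and likewise 0 of the further pathway genes; the 4 diabetic libraries alone also gave 0. DESeq2 called 105 genes for curcumin-treated against untreated diabetes, 55 for diabetes against control and 77 for curcumin-treated diabetes against control, of which 2, 1 and 1 were further pathway genes; the cause was not tested. For Enpep, curcumin-treated against untreated diabetes moved to −1.68 with the replicate block and −1.97 with the crossed block. With the replicate block the log2 fold change turned to −0.012 for Enpep (diabetes against control) and to −0.34 for Mas1 (curcumin-treated diabetes against control). Same-numbered libraries deviated in opposite directions (correlation −0.41 across genes, 2 pairs), so the numbers give no pairing. With the pairing crossed, diabetes against control gave 0.74 for Ace, −0.91 for Agtr1a and −1.46 for Enpep, and curcumin-treated diabetes against control gave −0.22 for Mas1 and −0.069 for Atp6ap2. Leaving out a library, curcumin-treated against untreated diabetes ran from −4.18 to 1.43 for Ace, −2.10 to 0.64 for Agtr1a, −6.24 to 6.80 for Agtr2 and −5.59 to 2.82 for Enpep. Diabetes against control ran from −2.99 to 0.78 for Ace, −1.01 to 1.24 for Agtr1a and −4.17 to 4.14 for Enpep, and curcumin-treated diabetes against control from −1.58 to 0.28 for Agtr1a and −0.10 to 0.35 for Atp6ap2. The Agtr2 extremes depend on the prior count, since a group was then at 0. Scaling to library totals moved the median of all genes for curcumin-treated diabetes against control from 0.17 to 0.03. Depth limits Ren1, Agtr1b and Mas1, which had at most 14 counts in a library.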

Other observations

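Of the 8 genes listed for renin-producing cells, all were tested and 0 were called by edgeR. Akr1b7, an aldo-keto reductase of renin cells, adrenal cortex and the vas deferens, stood at 17874 and 0.141 CPM with curcumin, 6.76 and 0.118 CPM in diabetes and 8.70 CPM in control 1. Ptgs2, the inducible cyclooxygenase, stood at 1472 and 0.990 CPM with curcumin, 1.22 and 2.99 CPM in diabetes and 4.88 CPM in control 1. Curcumin-treated 1 alone was high for both, and its summed smooth muscle markers were at 44257 CPM; their part was not tested. Crip1 followed another order, at 1189 and 2967 CPM with curcumin, 1149 and 224 CPM in diabetes and 1627 CPM in control 1. Gja5 (5.99 CPM), Adrb1 (4.30 CPM) and Nos1 (4.77 CPM) were highest in diabetes 2, Gja4 in curcumin-treated 2 (17.3 CPM), and Prkg2 ran from 0.118 to 3.20 CPM. Kidney markers (6 genes) summed to at most 4.13 CPM in any library.

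Of 12 genes of aldosterone synthesis and action, 9 were tested and 0 called. The aldosterone synthase Cyp11b2 had 0 counts in all 5 libraries. The sodium channel subunit Scnn1a had 9.71 and 63.4 CPM with curcumin, 58.9 and 1.69 CPM in diabetes and 82.7 CPM in control 1. Hsd11b1, which regenerates active glucocorticoid, had 21.5 and 1.60 CPM with curcumin, 2.04 and 68.6 CPM in diabetes and 2.15 CPM in control 1. Sgk1, an aldosterone-responsive kinase, had 21.2 and 10.6 CPM with curcumin, 15.8 and 87.8 CPM in diabetes and 32.7 CPM in control 1. Of 16 listed regulators of Agt, 15 were tested and 0 called, with a median log2 fold change of −0.13 for curcumin-treated against untreated diabetes and 0.41 for diabetes against control. The 16 genes summed to 928 and 778 CPM with curcumin, 692 and 1340 CPM in diabetes and 753 CPM in control 1, so diabetes 1 lay below the control. The adipocyte factor Cebpa was highest in diabetes 2, at 558 CPM. Stat3 ran from 89.7 to 126 CPM. Usf1 had 65.8 and 58.8 CPM with curcumin, 35.4 and 30.9 CPM in diabetes and 47.0 CPM in control 1. Among the 82 tested list genes, Rela, Thra, Prkg2 and Scnn1g, like Usf1, were highest in both curcumin-treated libraries, as were 7.83% of all genes. Scnn1g was low, at 0.791 and 0.141 CPM with curcumin. Mme and Tgfb1 were lowest in both curcumin-treated libraries, as were 5.76% of all genes.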
